A study of Homo sapiens with 12 samples.

Results

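The 10 genes described here encode the alpha-tubulins and beta-tubulins read in IMR90, a widely used cell line of fibroblasts from normal human lung. The alpha-tubulin genes are TUBA1A, TUBA1B, TUBA1C and TUBA4A, and the beta-tubulin genes are TUBB, TUBB2A, TUBB2B, TUBB3, TUBB4B and TUBB6. They were chosen by name, with earlier results of these data known, from the 38716 gene symbols of the tables. All 10 passed the filter on low counts in every test below.

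Ribosome footprints (Ribo-seq) and poly(A)-enriched RNA (RNA-seq) were sequenced from proliferating (Pro) IMR90 and from IMR90 that had reached replicative senescence (Sen) through continuous passaging. The labels name no drug for either state, and both states shared a medium with serum and, in the lysis buffer, cycloheximide, which arrests ribosomes. Each state had 3 independent cultures, and both kinds of library were made from every lysate, for 12 libraries in all. The culture notes name 2 isolates of the line without tying them to samples, and the RNA-seq files of Pro cells carry a tag resembling the name of the solvent DMSO, so neither isolate nor solvent can be told apart from state. The comparison asked how far tubulin expression differed between the states in mRNA level, in ribosome occupancy and in the ratio of both.

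Alpha-tubulin and beta-tubulin pair into the dimers from which microtubules, the hollow filaments of the cytoskeleton and of the mitotic spindle, are built. Cells adjust tubulin mRNA to the amount of free dimer: when free dimer is in excess, the factor TTC5 binds the first residues of a tubulin chain as it leaves the ribosome and, through SCAPER and the CCR4-NOT deadenylase, leads to decay of the mRNA under translation. This autoregulation acts only on mRNAs that are being translated. The genes of each family arose by duplication, and their coding sequences (CDS) are still nearly alike.

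The first 30 coding bases of each gene are shown because the first 4 codons, in capitals, encode the short N-terminal stretch that TTC5 reads. They were taken from GENCODE transcripts lifted to GRCh37.
TUBA1A: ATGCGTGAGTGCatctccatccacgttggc
TUBA1B: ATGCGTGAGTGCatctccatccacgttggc
TUBA1C: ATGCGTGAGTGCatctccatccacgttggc
TUBA4A: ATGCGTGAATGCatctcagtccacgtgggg
TUBB: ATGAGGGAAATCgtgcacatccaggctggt
TUBB2A: ATGCGCGAGATCgtgcacatccaggcgggc
TUBB2B: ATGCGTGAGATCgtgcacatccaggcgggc
TUBB3: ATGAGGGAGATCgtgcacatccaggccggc
TUBB4B: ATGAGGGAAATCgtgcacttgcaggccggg
TUBB6: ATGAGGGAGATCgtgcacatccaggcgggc
The 3 TUBA1 genes were identical over these 30 bases, a length close to that of a ribosome footprint. A footprint from this place could therefore not be assigned to any of them.

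In the same annotation TUBA1A, TUBA1B and TUBA1C lie on chromosome 12, at chr12:49578469-49582863 (minus strand), chr12:49521565-49525180 (minus strand) and chr12:49582519-49668383 (plus strand). TUBB2A and TUBB2B are neighbours on the minus strand of chromosome 6, at chr6:3153731-3157778 and chr6:3223558-3231964, and TUBB lies on the plus strand at chr6:30685212-30693315. TUBA4A is at chr2:220114432-220142624 (minus strand), TUBB3 at chr16:89987800-90005169 (plus strand), TUBB4B at chr9:140135739-140138159 (plus strand) and TUBB6 at chr18:12307668-12344319 (plus strand). Each CDS spans 4 exons and from 1335 to 1356 bases. The start regions of TUBA1A and TUBA1C overlap on opposite strands. Parts of TUBA4A and TUBA4B, TUBB and MDC1, TUBB2A and BPHL, TUBB2B and PSMG4, TUBB4B and FAM166A, and TUBB6 and AFG3L2 do so as well. Each member overlapped an annotated gene on the opposite strand. The sources used here do not state whether reads were counted by strand, so reads of such partners cannot be told apart.

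The CDS was identical at 98.1% of aligned bases between TUBB2A and TUBB2B, at 97.2% between TUBA1A and TUBA1B, at 96.8% between TUBA1B and TUBA1C and at 95.9% between TUBA1A and TUBA1C. The beta-tubulins were otherwise from 81.0% to 87.7% identical to one another. Coding bases 31 to 60 show the same sharing, and each window below occurred in the named genes and in no other annotated transcript.
TUBA1A, TUBA1B and TUBA1C: caggctggtgtccagattggcaatgcctgc
TUBB2A and TUBB2B: cagtgcggcaaccagatcggcgccaagttt
Of all 30-base windows along the CDS, the length of a footprint, 13.2% occurred in TUBA1B alone, 26.1% in TUBA1A alone and 26.6% in TUBA1C alone. For TUBB2A and TUBB2B the shares were 16.0% and 18.4%, and for TUBB 42.8%. The other members were far better separated, with 72.2% for TUBB3, 74.7% for TUBB4B, 79.6% for TUBA4A and 89.4% for TUBB6. At 50 bases, about the read length of the RNA-seq, only TUBA1A (41.4%), TUBA1B (24.3%), TUBA1C (43.0%), TUBB2A (21.5%) and TUBB2B (20.2%) stayed below 66.6%, the value of TUBB. In the untranslated regions (UTRs), by contrast, from 94.8% to 100% of the 50-base windows belonged to 1 gene.

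**Figure D1:**
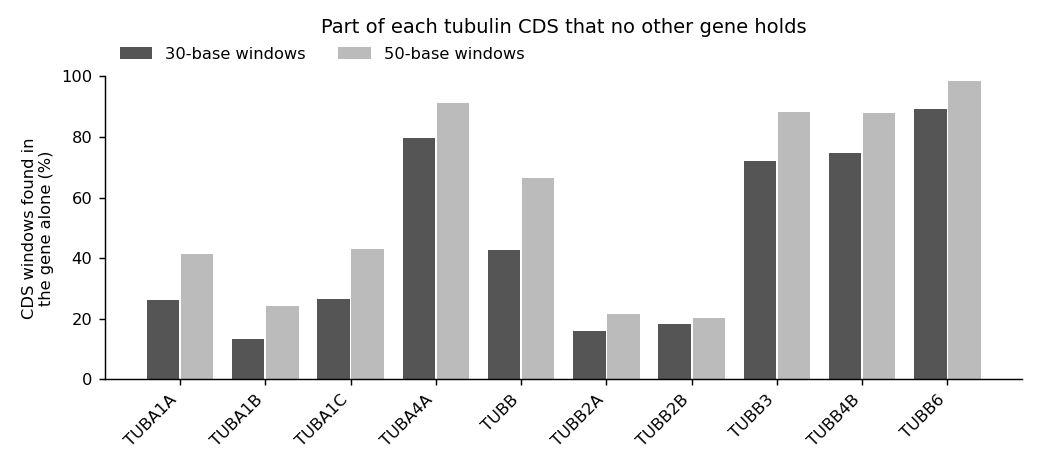
Share of 30-base and 50-base windows along each coding sequence that occur in no other annotated gene, in percent. TUBB2A, TUBB2B and the 3 TUBA1 genes have the lowest bars, from 13.2% for TUBA1B, and TUBB6 has the highest, at 89.4% and 98.5%.

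The deposited values show how reads with several placements were treated. Every nonzero CDS value was within 0.001 of a multiple of a sixth of a read, as an even division of reads among up to 3 placements would give. Of the 60 CDS values of the members in Ribo-seq (10 genes in 6 libraries) 81.7% were not whole (tolerance 0.001 reads), against 17.9% for other genes, and in RNA-seq 83.3% against 13.0%. In the RNA-seq 5′ UTR values the share was 51.7%, against 11.4% for other genes, and no 3′ UTR value of a member was fractional. The values of TUBA1A, TUBA1B, TUBA1C, TUBB2A and TUBB2B below are therefore uncertain as to the split between paralogs.

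The mRNA regions took up between 7902427 and 14144455 reads per RNA-seq library, and 4 of the Ribo-seq libraries from 583798 to 1718521 CDS reads. The Ribo-seq libraries Pro 1 and Sen 2 were shallow, with 54421 and 54708 CDS reads, so that 3 counts correspond there to 55.1 and 54.8 CPM (counts per 1000000 counts of the library) against at most 5.14 elsewhere. The fibroblast markers were all present, with 8 of 8 over 1 CPM and a summed level from 28244 to 31749 CPM in Pro and from 26721 to 29960 CPM in Sen, while the endothelial markers (0 of 3), CD3E and PTPRC were under 1 CPM. Of 4 epithelial markers 2 (EPCAM and CLDN4) passed 1 CPM in a library, with a sum from 1.16 to 2.52 CPM in Pro and from 1.61 to 2.02 CPM in Sen, and CDH1 and KRT5 did not. MKI67, a proliferation marker, averaged 150 ± 2.19 CPM in Pro and 30.5 ± 2.04 CPM in Sen (SD, n = 3). CDKN1A, which encodes the cell cycle inhibitor p21, averaged 504 ± 12 and 1533 ± 61.7 CPM. CDKN2A, which encodes the inhibitor p16, averaged 48.6 ± 4.74 and 74.9 ± 8.12 CPM with a called rise in TE (log2 change 0.96 ± 0.21, adjusted p = 0.00272), and LMNB1, a nuclear lamin lost in senescence, 64.1 ± 5.34 and 9.0 ± 1.13 CPM. The ratio of footprints to mRNA of CDKN2A overlapped between the states, and Pro 1 and Sen 2 held only 5 and 4 of its footprints. Neuronal markers summed to between 4.37 and 5.22 CPM in Pro and to between 1.42 and 1.92 CPM in Sen, with RBFOX3, ELAVL4 and STMN4 under 1 CPM. Of the leukocyte markers CD68, also expressed by fibroblasts, was over 1 CPM, and their sum ran from 19.0 to 21.1 CPM in Pro and from 31.1 to 34.3 CPM in Sen. The part of these markers in the tubulin values was not tested.

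Tubulin mRNA made up a smaller part of the mRNA reads in senescent IMR90. Levels are given in CPM, with library sizes adjusted by TMM factors, for the sum of 5′ UTR, CDS and 3′ UTR reads. The 10 members together reached 7792, 7705 and 7418 CPM in Pro 1, 2 and 3, and 5564, 5517 and 5369 CPM in Sen 1, 2 and 3. All Sen libraries lay below all Pro libraries. As a plain share of mRNA reads the members made up 0.791% ± 0.0184 in Pro and 0.528% ± 0.00655 in Sen (SD, n = 3). The alpha-tubulins went from 4145 ± 151 to 2758 ± 140 CPM and the beta-tubulins from 3494 ± 44.6 to 2725 ± 60.0 CPM. By UTR reads alone the alpha-tubulins went from 1373 ± 81.6 to 814 ± 8.02 CPM and the beta-tubulins from 2583 ± 82.8 to 1866 ± 34.1 CPM. In such bulk samples, fewer cells with a high level and a lower level per cell cannot be told apart. All these values are relative to the reads of their library, so tubulin mRNA per cell was not measured.

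Of the single genes, 6 fell and 4 rose in senescence at the threshold used throughout (adjusted p under 0.15), and in all 10 the groups of 3 libraries did not overlap. Among all 12787 genes tested 73.6% passed this threshold, 36.6% higher and 37% lower, and 67.8% did not overlap. Changes of mRNA were thus the rule across the transcriptome. Because CDS reads were divided within the TUBA1 genes and between TUBB2A and TUBB2B, the calls within these groups are not independent. The members that fell were TUBA1A, TUBA1B, TUBA1C, TUBB, TUBB3 and TUBB4B, which include the 4 with the highest level per CDS length in Pro. The members that rose were TUBB2A, TUBB2B, TUBA4A and TUBB6. The median log2 fold change of the members was -0.45, beside -0.01 over all genes tested. Adjusted p-values ranged from 1.9e-08 to 0.0017 by edgeR's quasi-likelihood test.

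TUBA1B, a main alpha-tubulin of most cell types, read 1611, 1576 and 1489 CPM in Pro and 977, 981 and 896 CPM in Sen. It fell by 0.71 ± 0.07 on the log2 scale (SE), or 1.64-fold, with adjusted p = 1.9e-08. TUBA1C, a close copy expressed widely, read 1324, 1308 and 1228 CPM in Pro and 868, 877 and 803 CPM in Sen. The lowest Pro library stood well above the highest Sen library, and the log2 fold change was -0.60 ± 0.07. TUBA1A, best known as the main alpha-tubulin of developing neurons, read 1303, 1296 and 1237 CPM in Pro and 941, 975 and 873 CPM in Sen. Its log2 fold change was -0.46 ± 0.07 (adjusted p = 8.86e-06).

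TUBA4A, the most divergent alpha-tubulin here, moved the other way from a far lower level. It read 21.6, 21.1 and 19.8 CPM in Pro and 29.7, 28.0 and 27.3 CPM in Sen, a log2 fold change of 0.44 ± 0.09 (adjusted p = 0.000255). Every Sen library exceeded every Pro library. With RNA-seq thinned to the depth of the Ribo-seq libraries, this change no longer passed the threshold (adjusted p = 0.227).

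TUBB, the main beta-tubulin of proliferating cells, had the highest mRNA level per CDS length of all members, as CDS reads were divided here. It read 2264, 2225 and 2131 CPM in Pro and 1396, 1385 and 1357 CPM in Sen, and fell by 0.68 ± 0.07 on the log2 scale (adjusted p = 2.51e-08). TUBB4B, an isotype found in many tissues and in ciliated cells, read 332, 329 and 341 CPM in Pro and 230, 228 and 250 CPM in Sen (log2 fold change -0.50 ± 0.07). TUBB3, known as the neuronal isotype, read 211, 231 and 230 CPM in Pro and 172, 143 and 181 CPM in Sen. The Sen libraries of TUBB3 were more scattered than the Pro libraries, and the log2 fold change was -0.44 ± 0.08.

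TUBB2A and TUBB2B, isotypes best known from the nervous system, rose. TUBB2A read 111, 118 and 130 CPM in Pro and 194, 181 and 201 CPM in Sen, a log2 fold change of 0.68 ± 0.08 (adjusted p = 6.51e-08). TUBB2B read 66.6, 74.9 and 75.2 CPM in Pro and 104, 97.4 and 112 CPM in Sen, or 0.53 ± 0.08. The groups stood apart for both genes, but the value of TUBB2B depended on the reads counted, as described below for its UTR. TUBB6, a divergent beta-tubulin, read 547, 527 and 537 CPM in Pro and a mean of 647 ± 22.9 CPM in Sen, whose lowest library, Sen 2, read 622 CPM. Its log2 fold change of 0.27 ± 0.07 was the smallest of the members (adjusted p = 0.0017).

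**Figure D2:**
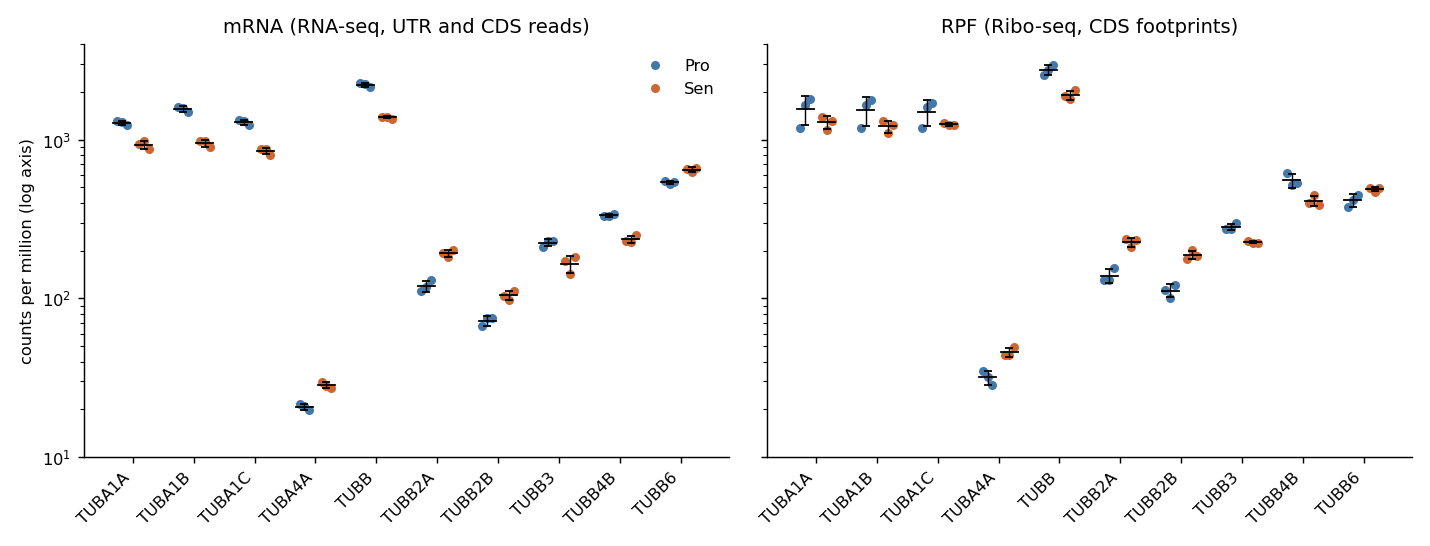
Level of each tubulin gene in CPM on a log axis, for mRNA (left) and CDS footprints (right). Points are the 3 libraries of each state (Pro blue, Sen orange), black bars the mean ± SD. In mRNA the states do not overlap for any of the 10 genes, whereas the footprints of the 3 TUBA1 genes overlap, with Pro 1 lowest among the Pro libraries.

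Across genes, levels were compared per length of CDS, in CPM of CDS reads per kb of CDS. In Pro RNA-seq TUBB led with 1845 ± 43.3, followed by TUBA1B with 1508 ± 52.7, TUBA1C with 1371 ± 37.9 and TUBA1A with 1314 ± 32.7. The replicates of TUBA1C and TUBA1A overlapped, so that their order was not resolved. TUBB6 (436 ± 15.4), TUBB4B (324 ± 1.49), TUBB3 (209 ± 13.3), TUBB2A (111 ± 2.87), TUBB2B (77.7 ± 5.99) and TUBA4A (22.1 ± 0.827) followed without overlap between neighbours. In Sen the order changed at 2 places. TUBB2A, at 181 ± 5.27, stood above TUBB3, at 159 ± 15.9, and the 3 TUBA1 genes (971 ± 63.7 for TUBA1B, 952 ± 62.2 for TUBA1A and 920 ± 50.8 for TUBA1C) overlapped with their neighbours in the order. TUBB remained the highest, with 1173 ± 14.5, and TUBA4A the lowest, with 30 ± 1.66. The places of the TUBA1 and TUBB2 genes in this order also rest on how CDS reads were divided between paralogs. Overlap of replicates does not measure this. At 50 bases, 9.49% of TUBA1A, 10% of TUBB2A and 11.5% of TUBB4B windows occurred in more than 3 genes, against 0.156% for TUBB. The effect of such windows on the levels was not tested.

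Ribosome-protected fragments (RPF), the CDS reads of Ribo-seq, had a fold change of the same sign as the mRNA in all 10 genes. For TUBB2B this holds for mRNA that includes CDS reads shared with TUBB2A, whereas its UTR reads alone gave -0.61. Fewer footprints were found for TUBA1A, TUBA1B, TUBA1C, TUBB, TUBB3 and TUBB4B, and more for TUBA4A, TUBB2A and TUBB2B. These 9 of 10 members passed the threshold, 6 lower and 3 higher, against 54.4% of the 7521 genes tested (26.9% lower and 27.5% higher). Most footprints of the TUBA1 genes, and of TUBB2A and TUBB2B, could have come from a paralog. Calls within these groups are therefore not independent of one another. TUBB6 did not pass (log2 fold change 0.20 ± 0.16, adjusted p = 0.321). The groups did not overlap in 7 members, beside 32.8% of all genes. The count depended on the setting: 3 members passed with DESeq2, 4 with the replicate number as a block and 5 with all genes of at least 1 read, where 15.5%, 31.1% and 34.7% of all genes passed. It was 5 without Pro 2, 2 without Pro 3, 2 without Sen 1 and 3 without Sen 3, beside 41.9%, 35.4%, 33.2% and 43.1% of all genes. Without both shallow libraries 9 members and 53.7% of all genes passed. TUBB2A and TUBB2B passed in all 14 alternatives, TUBB in 12, TUBB4B in 10 and TUBA4A in 8. TUBA1B, TUBA1C and TUBB3 passed in 7 and TUBA1A in 6.

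TUBB2A footprints read 131, 130 and 156 CPM in Pro and 235, 210 and 233 CPM in Sen, and those of TUBB2B read 113, 101 and 122 CPM in Pro and 178, 201 and 186 CPM in Sen. Both genes were higher in every Sen library, with log2 fold changes of 0.68 ± 0.17 each (adjusted p = 0.000615 and 0.000886). Because most of their footprints could have come from either gene, their sum is the firmer value. It went from 251 ± 24 to 414 ± 4.25 CPM.

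TUBB footprints read 2546, 2732 and 2960 CPM in Pro and 1874, 1807 and 2047 CPM in Sen, with a log2 fold change of -0.53 ± 0.17 (adjusted p = 0.0107). TUBB4B read 615, 514 and 531 CPM in Pro and 400, 446 and 387 CPM in Sen (-0.42 ± 0.16, adjusted p = 0.0287). TUBB3 read 273, 275 and 297 CPM in Pro and 230, 224 and 223 CPM in Sen (-0.34 ± 0.16, adjusted p = 0.086). The states did not overlap in any of these beta-tubulins. TUBA4A read 34.8, 32.1 and 28.5 CPM in Pro and 44.1, 44.3 and 49.1 CPM in Sen (0.58 ± 0.28, adjusted p = 0.088). Its values in Pro 1 and Sen 2 were below the level of 3 counts in those libraries. TUBB6 read 377, 418 and 450 CPM in Pro and 497, 470 and 495 CPM in Sen, apart by a small gap although the test was not passed.

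The 3 TUBA1 genes had nearly the same footprint level in every library, and their states overlapped. TUBA1B read 1187, 1648 and 1786 CPM in Pro and 1300, 1093 and 1240 CPM in Sen. TUBA1A read 1190, 1657 and 1802 CPM in Pro and 1380, 1152 and 1313 CPM in Sen, and TUBA1C read 1187, 1593 and 1700 CPM in Pro and 1279, 1240 and 1228 CPM in Sen. The shallow library Pro 1 was the lowest Pro library for each of them and fell within or near the Sen values. Log2 fold changes were -0.37 ± 0.17 for TUBA1B (adjusted p = 0.0692), -0.31 ± 0.17 for TUBA1C (adjusted p = 0.139) and -0.30 ± 0.17 for TUBA1A (adjusted p = 0.149), the last at the edge of the threshold. These values depended on the libraries kept. Without Pro 3 they were -0.23, -0.18 and -0.16 for TUBA1B, TUBA1C and TUBA1A, none past the threshold. None passed without Pro 2, without Sen 1 or without Sen 3 either. Without the shallow Pro 1 they were -0.52, -0.45 and -0.45. Without both shallow libraries they were -0.43, -0.39 and -0.36, all past the threshold (adjusted p = 0.00234, 0.00517 and 0.00936). The summed footprints of the 3 genes went from 4584 ± 904 to 3742 ± 240 CPM and overlapped between the states. As a plain share of CDS footprints, without TMM factors, they made up 0.459% ± 0.0739 in Pro and 0.349% ± 0.0133 in Sen, without overlap. Whether the states overlapped thus depended on the scaling.

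Translational efficiency (TE), the footprints of a gene relative to its mRNA, was not called changed for any member. None of the 10 passed the threshold, against 10% of 7473 genes (6.32% higher and 3.73% lower), and 1 of 10 had an unadjusted p under 0.05. Log2 changes of TE ranged from -0.05 ± 0.17 for TUBB6 to 0.39 ± 0.18 for TUBA1B, and 9 of 10 were above 0, with a median of 0.15 beside 0.03 over all genes. DESeq2 and limma voom also called 0 of 10, but they called only 28 and 47 of all genes. For TUBA1B the 95% confidence interval of the TE change ran from 0.03 to 0.74 (adjusted p = 0.225). Without the shallow lysate Pro 1 the TE change was 0.19 for TUBA1B, 0.16 for TUBA1C, in place of 0.34, and 0.03 for TUBA1A, in place of 0.21. The interval of TUBA1C ran from -0.00 to 0.69 and that of TUBB from -0.16 to 0.54, so that increases of this size were not resolved at this depth.

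Per lysate, the log2 ratio of RPF to mRNA for TUBA1B was -0.44, 0.06 and 0.26 in Pro and 0.41, 0.16 and 0.47 in Sen. The states overlapped, and the spread among Pro lysates was set by the shallow lysate Pro 1. TUBA1C, with -0.16, 0.28 and 0.47 in Pro and 0.56, 0.50 and 0.61 in Sen, was the single member whose states did not overlap, where 16.6% of all genes did not. TUBB2A was close to constant, with 0.24, 0.15 and 0.26 in Pro and 0.28, 0.21 and 0.21 in Sen. TUBB6 had the lowest mean ratio in Sen (-0.41 ± 0.02) and TUBB2B (0.85 ± 0.17) and TUBB4B (0.80 ± 0.17), which overlapped, had the highest. The ratio sets CDS footprints against CDS and UTR reads together. Its order across genes therefore also depends on the share of UTR reads of each gene.

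**Figure D3:**
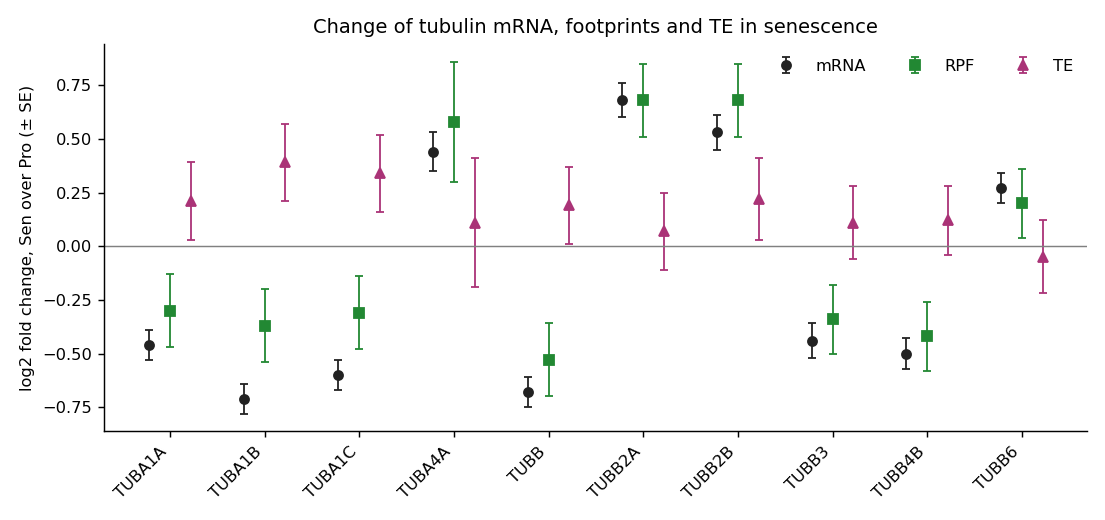
Log2 fold change from Pro to Sen (± SE) of mRNA, RPF and TE for each tubulin gene. mRNA and RPF lie on the same side of 0 in every gene, and TE ranges from -0.05 (TUBB6) to 0.39 (TUBA1B) with none past the threshold. The mRNA of TUBB2B includes CDS reads shared with TUBB2A, and its UTR reads alone have the opposite sign.

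UTR reads of the RNA-seq, which in the annotation belong almost wholly to 1 gene, gave a second estimate of the mRNA change. As many 5′ UTR values were fractional, this estimate also holds some divided reads. TUBB2B then fell rather than rose, and TUBA1B fell further. By UTR reads 3 members were higher and 7 lower, all past the threshold, where 60.8% of 11435 genes passed, 29.6% higher and 31.2% lower. The groups did not overlap in 8 members, beside 55.9% of all genes. By CDS reads alone 4 were higher and 6 lower, as with all mRNA reads, and 69.8% of genes passed (34.9% higher and 34.9% lower).

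TUBB2B held few UTR reads: 39, 70.8 and 72.5 reads in Pro and 32, 54.8 and 47.8 reads in Sen. Scaled to depth these were 13.8, 17.2 and 17.9 CPM in Pro and 9.4, 10.8 and 11.9 CPM in Sen. Every Sen library was below every Pro library, and the log2 fold change was -0.61 ± 0.18 (adjusted p = 0.00849). Its CDS reads gave the opposite, 94.9, 107 and 110 CPM in Pro and 157, 150 and 170 CPM in Sen, with a log2 fold change of 0.61 ± 0.08. The difference between CDS and UTR change was tested after these values had been seen, as an interaction of region with state within the RNA-seq libraries. It was 1.19 ± 0.18 on the log2 scale (adjusted p = 0.000583), and it passed in all 9 alternatives. Of 10984 genes 1.74% passed this test, 0.701% with the higher change in the CDS and 1.04% with the higher change in the UTR. The sign of the mRNA change of TUBB2B thus depended on the reads counted.

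TUBB2A, the paralog with which TUBB2B shares most of its CDS, rose by both counts. Its UTR reads were 48.1, 62.4 and 93.9 CPM in Pro and 103, 93.4 and 120 CPM in Sen, which overlap slightly, with a log2 fold change of 0.61 ± 0.16 against 0.71 ± 0.07 by CDS reads. The test of the difference gave 0.05 ± 0.16 (adjusted p = 0.982). TUBB2B made up 22.3%, 21.6% and 16.0% of the UTR reads of the TUBB2 genes in Pro and 8.36%, 10.4% and 8.98% in Sen. Of their CDS reads it made up 41.2% ± 1.33 and 39.6% ± 0.929, and of their footprints 44.7% ± 1.52 and 45.5% ± 3.06 (SD, n = 3). The states were thus apart in the split of UTR reads and overlapped in the splits of CDS reads and footprints. Some 5′ UTR reads of TUBB2B were themselves divided among placements, as its fractional values show.

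TUBA1B gave the second call. Its UTR reads were 720, 660 and 713 CPM in Pro and 330, 304 and 333 CPM in Sen, less than the lowest Pro value in each Sen library, and fell 2.16-fold (log2 fold change -1.11 ± 0.09). Its CDS reads fell 1.55-fold (-0.63 ± 0.08). The difference between both was 0.46 ± 0.11 (adjusted p = 0.0494), and it was lost without Pro 2, without Sen 1 or without Sen 2, with adjusted p up to 0.274. TUBA1A UTR reads were 379, 353 and 425 CPM in Pro and 309, 319 and 300 CPM in Sen (-0.32 ± 0.09), and those of TUBA1C were 285, 268 and 302 CPM in Pro and 175, 173 and 175 CPM in Sen (-0.71 ± 0.09). Neither differed between CDS and UTR past the threshold.

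**Figure D4:**
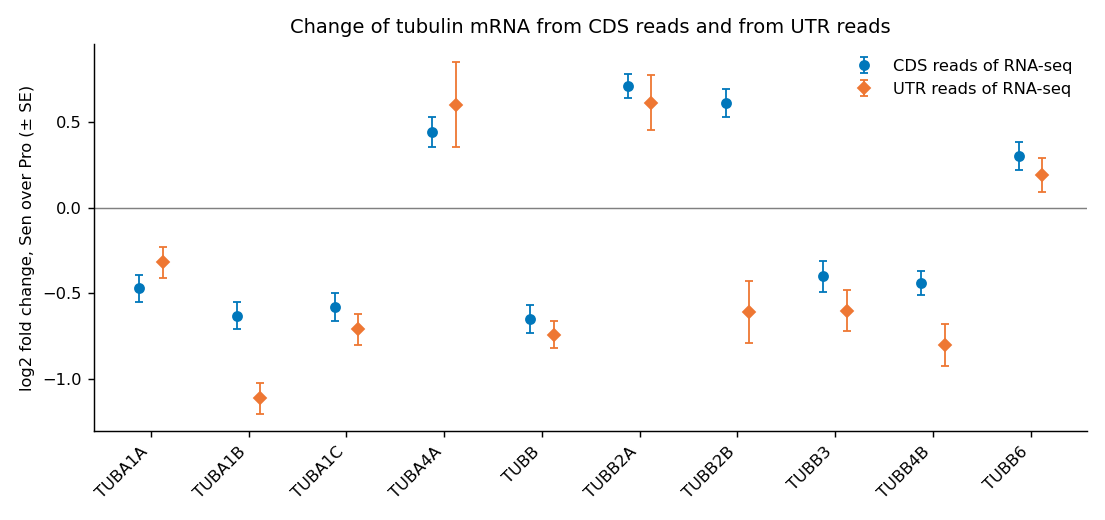
Log2 fold change from Pro to Sen (± SE) of each tubulin mRNA, computed from CDS reads (circles) and from UTR reads (diamonds) of the same RNA-seq libraries. TUBB2B has opposite signs, 0.61 and -0.61, and TUBA1B falls by 0.63 and by 1.11.

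Within the TUBA1 genes, UTR reads gave TUBA1B 52.0%, 51.5% and 49.5% of the group in Pro and 40.6%, 38.2% and 41.2% in Sen, while TUBA1A went from 28.2% ± 1.19 to 38.4% ± 1.5. The footprints were shared almost evenly: each gene held from 31.4% to 35.6% in every library. CDS reads of RNA-seq lay close to an even split as well, with TUBA1B at 36.0% ± 0.237 in Pro and 34.2% ± 0.203 in Sen. The log2 ratio of TUBA1A to TUBA1B rose by 0.80 in UTR reads, by 0.17 in CDS reads and by 0.07 in footprints. In each of these the states did not overlap, which in an exact two-sided permutation test of 3 against 3 gives p = 0.1, the smallest p this design allows (adjusted p = 0.15 over 9 ratios). With shares this close to even, the footprint change of a single TUBA1 gene was near that of the group.

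**Figure D5:**
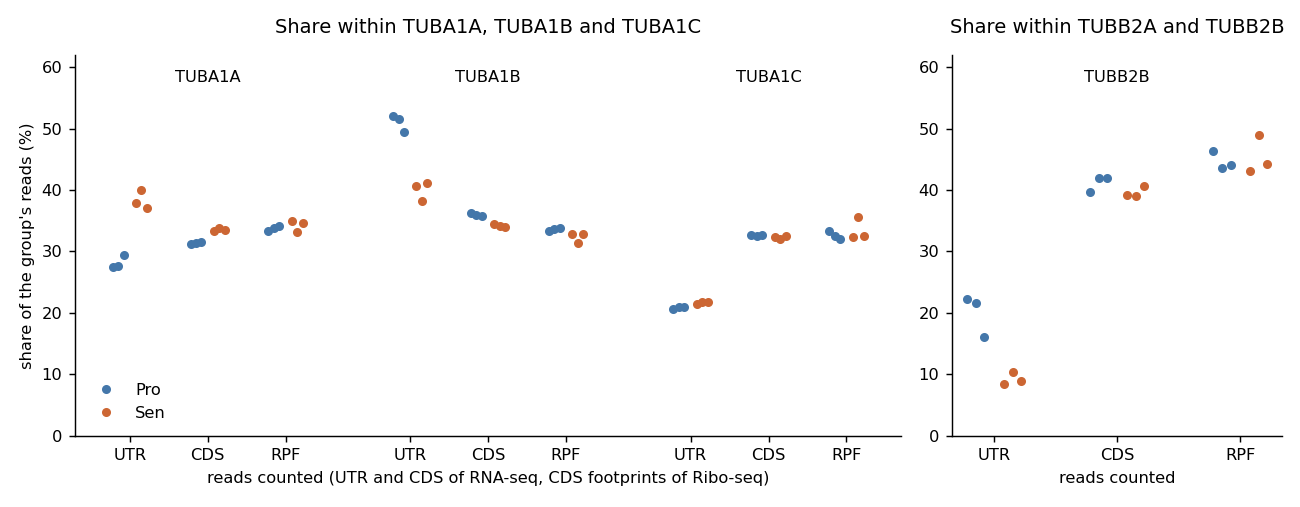
Share of each TUBA1 gene within TUBA1A, TUBA1B and TUBA1C (left) and of TUBB2B within TUBB2A and TUBB2B (right), in percent, by UTR reads, CDS reads and CDS footprints (RPF), with 1 point per library. UTR reads separate the states, from 51.0% to 40.0% for TUBA1B and from 19.9% to 9.24% for TUBB2B, and footprints lie near an even split.

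For the remaining members no difference between the regions was called. TUBB fell by 0.65 ± 0.08 in CDS reads and by 0.74 ± 0.08 in UTR reads, and TUBB3 by 0.40 ± 0.09 and 0.60 ± 0.12. TUBB4B fell by 0.44 ± 0.07 and 0.80 ± 0.12, a difference of 0.34 ± 0.13 that was not past the threshold (adjusted p = 0.436). TUBB6 rose by 0.30 ± 0.08 and 0.19 ± 0.10, and TUBA4A, with from 15 to 42 UTR reads per library, by 0.44 ± 0.09 and 0.60 ± 0.25. When the UTR reads stood for the mRNA in the TE test, 2 members passed, beside 6.43% of 7277 genes. These were TUBB2B with 1.43 (adjusted p = 0.000526) and TUBA1B with 0.76 (adjusted p = 0.0135). Both values set footprints divided among paralogs against UTR reads that belong almost wholly to 1 gene. TUBB2B held 44.7% of the TUBB2 footprints in Pro and 45.5% in Sen, but 19.9% and 9.24% of the UTR reads. A change of TE and the split of footprints cannot be told apart here.

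UTR reads came mostly from the 5′ UTR in every library for 7 of the members, and TUBB3 was mixed. TUBA1C held from 594 to 1220 reads in its 5′ UTR and from 0 to 2 reads in its 3′ UTR, which is 1373 bases long in the annotation used here. TUBB and TUBB6 were the exceptions, with more reads in the 3′ UTR than in the 5′ UTR in every library. The annotation behind the deposited counts is not given in the sources used here, and its UTRs may have other bounds.

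Genes that act on tubulin were counted in the same tests. The chaperonin CCT folds newly made tubulin, and all 8 of its subunits fell in mRNA, from CCT3 (log2 fold change -0.21 ± 0.07) to CCT5 (-0.57 ± 0.07), with a median of -0.38. In RPF 6 of 8 fell and in TE none was called, where across all genes 37% fell in mRNA and 26.9% in RPF. Prefoldin, which hands tubulin chains to CCT, had 3 of 6 subunits lower in mRNA, with PFDN4 lowest (-0.73 ± 0.13) and PFDN2 highest among those called (-0.13 ± 0.08, adjusted p = 0.135). In RPF 4 of 6 were lower and 1 higher. In TE 1 of 6 was lower and 1 higher, beside 3.73% and 6.32% of all genes. Of the 6 cofactors that join the dimer, TBCB rose (0.34 ± 0.08), ARL2 fell (-0.24 ± 0.09) with 1 other, and 3 were not called. The median over all genes was -0.01 in mRNA and -0.00 in RPF.

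The genes of tubulin autoregulation were called about as often as all genes. TTC5, which recognises the nascent chain, averaged 20.3 ± 1.02 CPM in Pro and 18.1 ± 1.47 CPM in Sen and did not pass (log2 fold change -0.16 ± 0.10, adjusted p = 0.187). SCAPER, which links TTC5 to the deadenylase, rose from 8.89 ± 1.57 to 15.3 ± 1.44 CPM (0.80 ± 0.13, adjusted p = 2.29e-05) and had too few footprints to be tested. Of the 12 genes of this list, 8 fell in mRNA, with CNOT9 of the CCR4-NOT complex lowest (-0.84 ± 0.08), and 3 were not called. Of all genes 73.6% were called and 37% fell in mRNA. In RPF 4 of 9 fell, beside 26.9% of all genes, and in TE none of 9 was called, beside 10%.

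The gamma-tubulin complex seeds new microtubules, and 6 of its 12 genes fell in mRNA, 1 rose and 5 were not called, fewer calls than the 73.6% over all genes. NEDD1, which anchors the complex at the centrosome and spindle, fell by 1.01 ± 0.11, and TUBGCP5, a subunit, rose by 0.28 ± 0.10. Of 17 tubulin-modifying enzymes tested 4 rose and 8 fell in mRNA, beside 36.6% and 37% of all genes. VASH2, which removes the terminal tyrosine of alpha-tubulin, fell most (mean 5.36 CPM in Pro and 0.690 CPM in Sen, log2 fold change -2.92 ± 0.26), and TTLL11, a polyglutamylase, rose by 0.60 ± 0.12. Of 27 microtubule regulators 10 rose and 8 fell in mRNA, a share called that was below the 73.6% of all genes. In RPF 4 of 23 rose and 9 fell, beside 27.5% and 26.9% of all genes. In TE 3 of 23 fell, beside 3.73% of all genes. STMN1 (stathmin), which binds and sequesters tubulin dimers, fell from 298 ± 32.6 to 148 ± 20.2 CPM (log2 fold change -1.0 ± 0.09), and its footprints fell by 1.0 ± 0.17. STMN3 fell furthest (-2.35 ± 0.12), and MAP2, which stabilises microtubules, rose by 1.15 ± 0.21 from a low level.

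Other tubulin isotypes were low. Of 11 listed genes 7 could be tested in mRNA, of which 1 rose and 3 fell, beside 36.6% and 37% of all genes. TUBB4A rose from 22.3 ± 0.246 to 27.4 ± 4.29 CPM (log2 fold change 0.29 ± 0.11), and TUBB8, at 4.38 ± 0.667 and 3.03 ± 0.415 CPM, fell by 0.54 ± 0.19. Windows of the TUBB4A CDS recur in TUBB2A, TUBB2B and TUBB3, so that its reads are subject to the same division.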

How the data were processed

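Proliferating and senescent IMR90 were compared with 3 lysates per state, each giving a Ribo-seq and an RNA-seq library. Groups came from the labels. The deposited values are expected counts: the authors assigned reads to the 5′ UTR, CDS, 3′ UTR and non-coding classes of each symbol, dividing some reads among placements. The submitters' processing notes name cutadapt 1.18, Bowtie 1.0.1, SAMtools 1.8 and DESeq2 1.22.2. The build, annotation and strand rule of these tables are not given in the sources used here. Because the tests had been planned for whole counts, values were rounded once the regions had been summed. The 16451 symbols with a CDS read were kept.

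Tests used edgeR 4.0.16 in R 4.3.3 (quasi-likelihood, filterByExpr, TMM within library type, two-sided, Benjamini-Hochberg over all genes tested, threshold 0.15). TE was the interaction of library type with state, with the lysate as a block. The labels pair the library types by lysate, and deviations of the pairs from their group means correlated from -0.0672 to 0.0945 across genes. DESeq2 1.42.0, limma 3.58.1 (voom), other scalings, filters, read regions and left-out libraries were alternatives. The scripts were tested on simulated data. A floor of 3 counts covers counting error only. Sequences and windows came from GENCODE v44 lifted to GRCh37, with the readthrough gene over TUBB3 counted as TUBB3. The members and lists were chosen with earlier results of these data known. Genes named were the 10 members, TTC5, SCAPER, STMN1, the state markers, and in each list the highest and lowest mRNA change among called genes whose states did not overlap.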

Additional observations from a re-analysis of the deposited data

Results flagged for a closer look

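Ribo-seq reads in the 3′ UTR of TUBA1A, which entered no comparison, were higher in every Sen library than in every Pro library. They averaged 7.44 CPM in Sen (17.7 in Sen 2, 2.67 in Sen 1 and 1.94 in Sen 3) and 0.691 in Pro. The reads behind these values were 4, 1 and 1 in Sen 1, 2 and 3, and 0, 1 and 1 in Pro 1, 2 and 3. All but that of Sen 1 lie below 3 counts, so the difference was not resolved at this depth.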

How the results depend on the processing

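In mRNA all 10 members passed under 15 of 16 alternatives and 9 with thinned RNA-seq, and 158 of 160 single values kept direction and call. TUBB2B reversed to -0.61 by UTR reads. In RPF 99 of 140 kept both and 41 lost the call. The count of 9 (all genes 54.4%) became 3 with DESeq2 (15.5%), 5 with all genes of at least 1 read (34.7%) and 4 with the replicate block (31.1%). The mRNA count was 10 with the replicate block. Deviations of Pro and Sen libraries of the same replicate number correlated from -0.197 to 0.231, which does not settle whether the numbers pair the states. Without the lysate block TE gave 0 and the CDS and UTR difference 2. Leaving out 1 library gave from 10 to 10 members in mRNA, 2 to 9 in RPF, 0 to 0 in TE and 1 to 2 for the CDS and UTR difference. TE gave 2 with UTR reads (6.43% of all genes). With 1 library left out, TE of TUBB2A ran from -0.00 (without Pro 1 or Pro 2) to 0.12 and was -0.01 with library totals, TE of TUBB6 from -0.15 to 0.02 (without Pro 3), the CDS and UTR difference of TUBB2A from -0.20 (without Pro 3, and -0.00 without Sen 2) to 0.23, and that of TUBB6 from -0.03 (without Pro 1) to 0.17. No value in these ranges passed the threshold, and the cause was not tested. Library totals moved the median of all genes to -0.11 in mRNA and -0.14 in RPF. The median SE over all genes was 0.10 in mRNA, 0.22 in mRNA thinned to the Ribo-seq depth, 0.26 in RPF, 0.27 in RPF without both shallow libraries and 0.27 in TE.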

Other observations

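Footprints in the 5′ UTR of TUBB, the most abundant beta-tubulin mRNA, had a lower level in every Sen library than in every Pro library. They amounted to 87.1, 45.9 and 47.0 CPM in Pro (5, 31 and 79 reads) and to 12, 35.4 and 3.88 in Sen (18, 2 and 2 reads). The states did not overlap, but 2 of the Sen values rest on 2 reads each, and no test was made. TUBA1A held 25 and 94 such reads in Pro 2 and Pro 3 and 76 and 15 in Sen 1 and Sen 3, with overlapping levels. Reads of the pseudogene TUBBP5 in RNA-seq averaged 14.1 ± 0.589 CPM in Pro and 10.3 ± 1.07 CPM in Sen (SD, n = 3), without overlap and without a test. TUBBP5 shares 10.4% of the 30-base windows of the TUBB4B CDS.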
